A study of Homo sapiens with 4 samples.

Results

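The GATA transcription factors GATA1 to GATA6 and their FOG cofactors ZFPM1 (FOG1) and ZFPM2 (FOG2) were examined in H1-derived cells after TGFβ inhibition. The members were the rows of the deposited table that carry these 8 symbols. Each symbol had 1 row, so that 8 of 58365 rows were taken. H1 is an established human embryonic stem cell line. All cells went through stepwise hematopoietic differentiation, with 2 days of activinA at 40 ng/ml and BMP4 at 50 ng/ml, then 3 days of VEGF at 40 ng/ml and bFGF at 50 ng/ml. The last 3 days used the same VEGF and bFGF with DMSO or with SB431542 (SB), an inhibitor of the TGFβ type I receptors. RNA was sequenced at day 8 from 2 DMSO libraries and 2 SB libraries. The study describes a sort for CD31-positive cells, which the labels do not mention. The labels do not say whether replicates 1 and 2 came from separate cultures, so p-values measure only the spread between these libraries, which may be technical.

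GATA factors bind DNA motifs with the core GATA through zinc fingers. GATA1, GATA2 and GATA3 are known from blood: GATA2 acts in hemogenic endothelium and in stem and progenitor cells, GATA1 in erythroid cells, megakaryocytes, mast cells and eosinophils, and GATA3 in T lymphocytes. GATA4, GATA5 and GATA6 act in mesendoderm and its derivatives, among them the heart and the endoderm of gut and liver. FOG proteins carry many zinc fingers, do not need to bind DNA themselves and attach to GATA factors. FOG1 pairs with GATA1 in erythroid and megakaryocyte cells, and FOG2 with GATA4 in the heart. Both can recruit the corepressors CtBP and NuRD.

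Replicate number, and not only treatment, set the libraries apart. Over 14909 genes tested, the median absolute log2 difference was 0.25 between replicate numbers and 0.19 between treatments, and in 57.9% of genes the number made the larger difference. Mitochondrial genes held 5.88% and 6.64% of the FPKM sum in replicate 1 and 9.92% and 10.2% in replicate 2. For that reason, fold changes are also given separately for replicate 1 and replicate 2. A fit with the number as a block was among the alternatives. All 12 endothelial markers passed the filter, with summed levels of 2824 and 2207 FPKM with DMSO and 2630 and 2172 FPKM with SB. The filter was also passed by 8 of 8 epithelial, 11 of 12 pan-hematopoietic and 10 of 12 mesenchymal markers. Passing it therefore does not establish endothelial identity. Depth, estimated from the lowest values of genes with 1 transcript, was about 21200000 and 20300000 fragments with DMSO and 17100000 and 22600000 fragments with SB.

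The balance of the family differed between the treatments. GATA1, GATA2 and GATA3 together held 82.1% and 83.3% of the summed FPKM of the 6 GATA genes in the DMSO libraries and 93.4% and 93.7% in the SB libraries. GATA4 was at 0.270 times its DMSO level and GATA5 at 0.348 times, while GATA1 was at 1.50 times. GATA2, GATA3, GATA6 and ZFPM1 overlapped between the groups. None of the 8 members (0 genes) passed an adjusted p of 0.05 in limma, a threshold that 0.134% of all genes tested passed. At an unadjusted p under 0.05, 1 member was higher (GATA1) and 2 were lower with SB (GATA4 and GATA5), while 9.96% of all genes tested fell under that value. In bulk RNA, fewer cells of a type and less RNA per cell cannot be told apart.

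**Figure D1:**
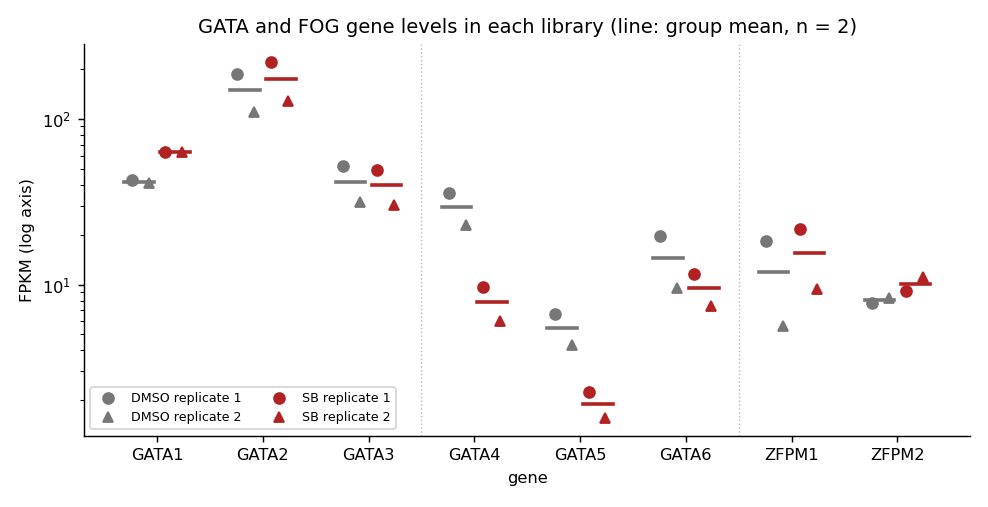
FPKM of the 8 GATA and FOG genes (log axis) in the DMSO libraries (grey) and the SB libraries (red), with circles for replicate 1, triangles for replicate 2 and lines for the group means (n = 2). GATA2 is the highest gene in each library, and GATA4 and GATA5 of both SB libraries lie below both DMSO libraries.

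FPKM is scaled by transcript length, so levels can be ordered between genes. GATA2 was the highest member in all 4 libraries, from 110.1 to 221 FPKM. GATA1 and GATA3 came next, and their order turned between libraries: GATA3 was above GATA1 in DMSO replicate 1 and below it in the other libraries. GATA4 was the fourth in both DMSO libraries and the sixth and the seventh in the SB libraries. GATA5 was the lowest member in each library. GATA6, ZFPM1, ZFPM2 and GATA4 changed places among themselves from library to library, and no order of these 4 genes held in all 4 libraries.

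Promoter windows are shown for 3 members: GATA1, which had the smallest p among the blood factors, GATA2 at its outer start, the most abundant member, and GATA6, the mesendoderm factor that the RefSeq table holds. This table (build GRCh38.p14) matched 5 of the 8 members, with windows of 300 bases, 250 before and 50 after the start of transcription. GATA3 and ZFPM1 were also matched. GATA4, GATA5 and ZFPM2 were not. Capitals mark the letters CCACCC (a box bound by KLF factors), CAGAC (a SMAD box) and GATA, on either strand.
GATA1, chrX:48786340-48786639, plus strand: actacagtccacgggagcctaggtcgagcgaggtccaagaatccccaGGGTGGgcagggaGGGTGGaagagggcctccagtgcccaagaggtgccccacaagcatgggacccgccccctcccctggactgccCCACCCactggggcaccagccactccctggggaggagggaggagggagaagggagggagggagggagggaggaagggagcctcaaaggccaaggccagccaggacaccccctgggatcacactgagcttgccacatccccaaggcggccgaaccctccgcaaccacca
GATA2, chr3:128493152-128493451, minus strand: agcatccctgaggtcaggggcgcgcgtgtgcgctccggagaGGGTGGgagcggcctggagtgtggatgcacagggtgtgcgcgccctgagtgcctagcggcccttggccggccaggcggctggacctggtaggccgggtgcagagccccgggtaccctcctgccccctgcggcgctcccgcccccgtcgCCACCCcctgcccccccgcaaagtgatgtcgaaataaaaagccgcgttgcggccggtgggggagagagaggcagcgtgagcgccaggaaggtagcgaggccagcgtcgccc
GATA6, chr18:22169339-22169638, plus strand: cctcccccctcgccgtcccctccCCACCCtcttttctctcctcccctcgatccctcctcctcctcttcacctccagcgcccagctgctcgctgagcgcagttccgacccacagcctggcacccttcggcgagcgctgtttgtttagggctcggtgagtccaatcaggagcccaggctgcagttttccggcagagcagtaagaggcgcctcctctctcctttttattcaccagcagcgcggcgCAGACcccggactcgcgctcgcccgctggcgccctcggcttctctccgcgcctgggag
The GATA1 window held 3 matches of CCACCC, that of GATA2 held 2 and that of GATA6 held 1, and 34.3% of all 35116 windows held at least 1. CAGAC was found in the GATA6 window (1 match) and in neither of the others, against 45.3% of all windows. GATA was found in 0 of these 3 windows, against 49.7% of all windows. Among the windows not shown, that at the inner start of GATA2 held 1 match of CAGAC. Some GATA3 windows held CAGAC and some held GATA, and the ZFPM1 window held neither. The box bound by KLF factors was absent from the inner GATA2 window, the ZFPM1 window and the GATA3 window starting at 8049604. The other GATA3 windows held it. Guanine and cytosine made up 66.7% to 72.3% of the bases in the 3 windows shown, against a median of 58.7% over all windows. Matches were not compared at equal base composition. A match is a description of the letters only.

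GATA1 (ENSG00000102145.13, chromosome X, 48786554 to 48794311 on GRCh38), the factor that drives erythroid and megakaryocyte maturation, was measured at 42.8 and 40.9 FPKM with DMSO and at 63.0 and 62.7 FPKM with SB. Both SB libraries lay above both DMSO libraries, and the replicates of each treatment were nearly level. The means were 41.9 ± 1.33 and 62.9 ± 0.244 FPKM (SD, n = 2 each). The log2 fold change, on the scale of log2(FPKM + 1), was 0.58 (SE 0.15, 95% interval 0.18 to 0.97), with an unadjusted p of 0.0140 and an adjusted p of 0.322 in limma. It was 0.55 within replicate 1 and 0.60 within replicate 2. The study reported GATA1 among hematopoietic genes significantly higher with SB in these libraries. In the fit with treatment alone, GATA1 did not pass the adjustment. The libraries are the same, so its direction here is not independent evidence. About 1246 to 2117 fragments lay behind each GATA1 value, a counting error of 2.17% to 2.83%.

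GATA2 (ENSG00000179348.11, chromosome 3, 128479427 to 128493185), required for the emergence of blood from endothelium, stood at 188 and 110.1 FPKM with DMSO and at 221 and 129 FPKM with SB. The groups overlapped, since replicate 1 was above replicate 2 under either treatment. The log2 fold change was 0.23 (SE 0.38, 95% interval -0.76 to 1.22, limma adjusted p 0.933). Within replicate numbers the FPKM ratio of SB to DMSO was 1.18 and 1.17. The difference between numbers, 0.77 on the log2 scale, was larger than that between treatments. GATA2 alone made up 54.6% and 50.2% of the summed FPKM of the 6 GATA genes with DMSO and 61.9% and 54.5% with SB.

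GATA3 (ENSG00000107485.15, chromosome 10, 8053604 to 8075198) is best known from T lymphocytes. It stood at 51.6 and 31.7 FPKM with DMSO and at 49.5 and 30.2 FPKM with SB. The libraries of replicate 1 were alike and those of replicate 2 were alike, and the groups overlapped almost fully. The log2 fold change was -0.06 (SE 0.35, 95% interval -0.97 to 0.84, limma adjusted p 0.987), and it was -0.06 and -0.07 within the numbers. Of 12 T lymphoid markers, 8 stayed under 1 FPKM in each library. Of the 4 tested, PTCRA was higher with SB at an unadjusted p under 0.05 (1 gene) and none was lower (0 genes). The shares of all genes tested were 4.80% and 5.16%. PTCRA stood at 0.254 and 0.180 FPKM with DMSO and at 0.968 and 1.47 FPKM with SB. It passed the filter through the SB group alone, which favours a higher value with SB. Most of the summed T lymphoid level was THY1, which other cells also express and which stood at 367 and 257 FPKM with DMSO and at 310.0 and 214 FPKM with SB. Of 12 trophoblast markers, another tissue that uses GATA3, 9 stayed under 1 FPKM and PSG1 was listed at 0 in each library. The 2 trophoblast markers tested were PGF, with a log2 fold change of -1.01 (limma adjusted p 0.167), and TFAP2A, with -0.01.

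GATA4 (ENSG00000136574.17, chromosome 8, 11676959 to 11760002), a regulator of heart and endoderm, stood at 35.5 and 22.9 FPKM with DMSO and at 9.68 and 6.05 FPKM with SB. It was the member with the largest difference, and the highest SB library lay below the lowest DMSO library. The means were 29.2 ± 8.94 and 7.87 ± 2.57 FPKM (SD, n = 2 each). The log2 fold change was -1.77 (SE 0.32, 95% interval -2.59 to -0.94), with an unadjusted p of 0.00285 and an adjusted p of 0.187 in limma. Its FPKM ratio of SB to DMSO was 0.273 within replicate 1 and 0.265 within replicate 2. The study screened these libraries for transcription factors at a lower level with SB, so the direction of GATA4 is not independent evidence.

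GATA5 (ENSG00000130700.6, chromosome 20, 62463497 to 62475970), which acts in endocardium and endoderm, stood at 6.65 and 4.31 FPKM with DMSO and at 2.24 and 1.57 FPKM with SB. Both SB libraries were again below both DMSO libraries. The log2 fold change was -1.14 (SE 0.27, 95% interval -1.84 to -0.45), with an unadjusted p of 0.00837 and an adjusted p of 0.270 in limma. The pseudocount of 1 understates this difference, and with 0.1 the value was -1.47. About 366 and 228 fragments lay behind the DMSO values and 100 and 92 behind the SB values, with a counting error of up to 10.4%.

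GATA6 (ENSG00000141448.8, chromosome 18, 22169443 to 22202528), a factor of definitive endoderm and cardiac mesoderm, stood at 19.5 and 9.52 FPKM with DMSO and at 11.5 and 7.43 FPKM with SB. The groups overlapped, because SB replicate 1 was above DMSO replicate 2. The log2 fold change was -0.52 (SE 0.39, 95% interval -1.54 to 0.51, limma adjusted p 0.783), with -0.71 within replicate 1 and -0.32 within replicate 2. Without DMSO replicate 1 the value was -0.033, and without DMSO replicate 2 it was -1.0. The ratio of GATA4 to GATA6, formed after the values were seen, was 1.82 and 2.40 in the DMSO libraries and 0.840 and 0.814 in the SB libraries. GATA4 was thus the higher of the pair in both DMSO libraries and the lower in both SB libraries.

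**Figure D2:**
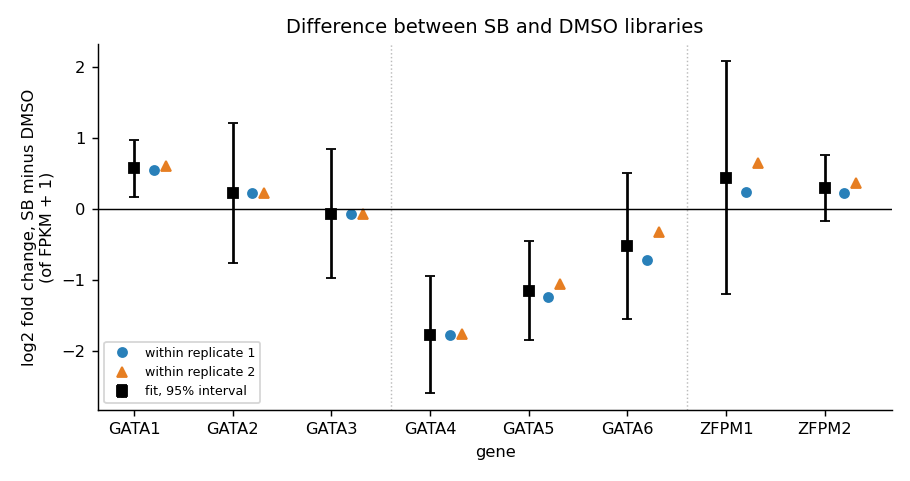
Log2 fold change of each GATA and FOG gene, SB minus DMSO, on the log2(FPKM + 1) scale, as the limma fit with its 95% interval (black) and as the difference within replicate 1 (blue circles) and replicate 2 (orange triangles). The intervals of GATA1, GATA4 and GATA5 leave out 0 before adjustment, and the within-number values of each gene lie on the same side of 0.

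The contrast of both groups of GATA factors was taken as the mean log2(FPKM + 1) of GATA1, GATA2 and GATA3 minus that of GATA4, GATA5 and GATA6. It was 2.08 and 2.28 in the DMSO libraries and 3.56 and 3.58 in the SB libraries. The SB libraries lay above the DMSO libraries and differed from each other by less than the DMSO libraries did. The mean difference was 1.39, with 1.48 within replicate 1 and 1.30 within replicate 2. Of this difference, the blood factors made up 0.25 and the mesendoderm factors -1.14, taken with its sign. As a ratio of summed FPKM, blood to mesendoderm factors stood at 4.57 and 4.98 with DMSO and at 14.2 and 14.8 with SB. No p is given for this score, since the members were chosen with results known.

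**Figure D3:**
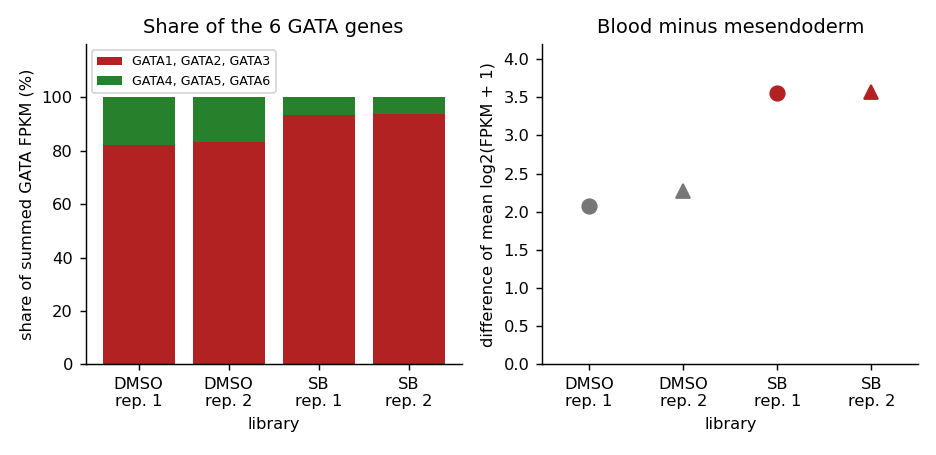
Left, share of GATA1, GATA2 and GATA3 (red) and of GATA4, GATA5 and GATA6 (green) in the summed FPKM of the 6 GATA genes in each library. Right, mean log2(FPKM + 1) of the former minus that of the latter in DMSO (grey) and SB (red) libraries, with values of 2.08, 2.28, 3.56 and 3.58 from left to right.

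The FOG cofactors did not pass the test. ZFPM1 (ENSG00000179588.8, chromosome 16, 88453317 to 88537016) encodes FOG1, the partner of GATA1. It stood at 18.3 and 5.62 FPKM with DMSO and at 21.7 and 9.45 FPKM with SB. Replicate 1 was far above replicate 2 under either treatment, a log2 difference of 1.33 between numbers, the largest such difference among the members. Its log2 fold change was 0.45 (SE 0.63, 95% interval -1.20 to 2.09, limma adjusted p 0.917), with 0.24 and 0.66 within the numbers. GATA1 was 2.34 and 7.28 times as high as ZFPM1 in the DMSO libraries and 2.90 and 6.64 times in the SB libraries. This ratio followed the replicate number and not the treatment.

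ZFPM2 (ENSG00000169946.13, chromosome 8, 104590733 to 105804532) encodes FOG2, the partner of GATA4. It stood at 7.69 and 8.34 FPKM with DMSO and at 9.16 and 11.1 FPKM with SB. Both SB libraries were above both DMSO libraries, opposite to GATA4. Its log2 fold change was 0.30 (SE 0.18, 95% interval -0.17 to 0.77, limma adjusted p 0.727). The ratio of ZFPM2 to GATA4 was 0.217 and 0.365 with DMSO and 0.946 and 1.83 with SB. Over all members, groups did not overlap for 2 higher genes (GATA1 and ZFPM2) and 2 lower genes (GATA4 and GATA5), against 21.5% of all genes tested on the higher and 16.0% on the lower side.

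The replicate number weighed unevenly on the family. GATA2, GATA3, GATA6 and ZFPM1 differed more between replicate numbers than between treatments, a share of 4 in 8 members against 57.9% of all genes tested. On the log2 scale, replicate 1 was above replicate 2 by 0.77 in GATA2, 0.69 in GATA3, 0.61 in GATA4, 0.43 in GATA5 and 0.77 in GATA6. GATA1 was nearly level (0.036), and ZFPM2 was lower in replicate 1 (-0.18). All 8 members had the same direction with SB within both numbers, as did 71.5% of all genes tested. The fold changes within the numbers were closest in GATA2, GATA3 and GATA4.

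**Figure D4:**
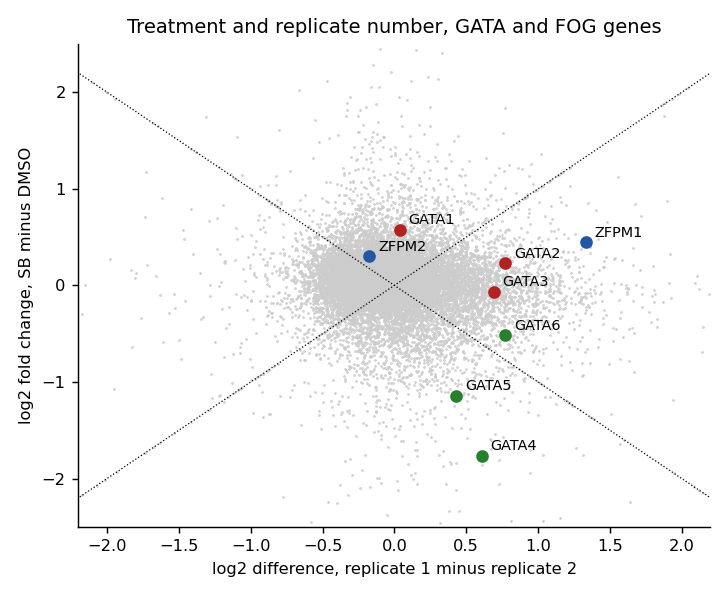
Log2 difference between replicate 1 and replicate 2 (horizontal) and log2 fold change SB minus DMSO (vertical) for all genes tested (light grey) and for blood GATA (red), mesendoderm GATA (green) and FOG genes (blue). Dotted lines mark equal size, and genes beyond the axes are not drawn. GATA2, GATA3, GATA6 and ZFPM1 lie in the right wedge, where the number makes the larger difference.

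Antisense and divergent transcripts at the member loci were compared next, of which 4 of 6 listed were in the table. GATA6-AS1 stood at 6.32 and 5.79 FPKM with DMSO and at 1.82 and 2.62 FPKM with SB. Its log2 fold change was -1.14 (SE 0.21, limma adjusted p 0.195), with no overlap between the groups, unlike GATA6 itself. GATA3-AS1 stood at 3.10 and 2.32 FPKM with DMSO and at 1.63 and 1.30 FPKM with SB (log2 fold change -0.59, limma adjusted p 0.493). It too did not overlap, while GATA3 did. GATA3 was 16.6 and 13.7 times its antisense transcript with DMSO and 30.4 and 23.3 times with SB. Of all genes tested, 16.0% were likewise lower with SB without overlap. About 56 to 239 fragments lay behind each GATA6-AS1 value and 62 to 146 behind each GATA3-AS1 value. The counting errors were up to 13.4% for GATA6-AS1 and up to 12.7% for GATA3-AS1. GATA2-AS1 followed GATA2, at 33.6 and 17.3 FPKM with DMSO and at 37.7 and 24.4 FPKM with SB (log2 fold change 0.32, limma adjusted p 0.894). It overlaps GATA2, and strand use in counting is not given in the sources used here, so reads of the 2 genes cannot be told apart. In GENCODE release 29, GATA3-AS1, GATA6-AS1 and ZFPM2-AS1 overlap their partner genes as well. By the loci in the deposited table, GATA3-AS1 and GATA6-AS1 end before the starts of GATA3 and GATA6 and do not overlap them. ZFPM2-AS1 was under 1 FPKM in each library and was not tested.

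Corepressors and other GATA-type zinc finger proteins gave no call. The 15 NuRD and CtBP genes that FOG proteins recruit were all tested, with 0 past an unadjusted p of 0.05 in limma, against 9.96% of all genes tested, and a median log2 fold change of 0.14, beside 0.040 for all genes tested. The most distinct by p were MTA2 (0.20), MBD2 (-0.27) and RBBP7 (0.22), with limma adjusted p of 0.788 to 0.812. Of 9 other genes with GATA-type fingers, 5 of which are themselves NuRD subunits, 0 passed an unadjusted p of 0.05 and the median was -0.11. ZGLP1, a germ cell factor, came first by p (0.36, limma adjusted p 0.681), followed by MTA2 and MTA3 (-0.20).

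Partners that share complexes with the GATA factors were tested in the same fit. Of 15 blood partners of GATA1 and GATA2, 0 passed the adjustment, 2 were higher at an unadjusted p under 0.05 and 0 were lower, against 4.80% and 5.16% of all genes tested, with a median of 0.18. GFI1B, a transcriptional repressor that acts in erythroid and megakaryocyte cells, had a log2 fold change of 1.47 (limma adjusted p 0.117). That of RUNX1 was 0.81 (limma adjusted p 0.280) and that of SPI1, the antagonist of GATA1, was 1.14 (limma adjusted p 0.520). Of 11 cardiac partners of GATA4 and GATA6 that were tested, 0 passed the adjustment, 2 were higher and 4 were lower at an unadjusted p under 0.05, against the same 4.80% and 5.16%, and the median was -0.27. HAND1 stood at 11.6 and 11.1 FPKM with DMSO and at 2.34 and 1.98 FPKM with SB, a log2 fold change of -1.97 (limma adjusted p 0.0646). NKX2-5 stood at 45.3 and 21.9 FPKM with DMSO and at 10.4 and 5.23 FPKM with SB, a log2 fold change of -1.95 (limma adjusted p 0.274). MEF2C, which is also used in blood and endothelium, was on the other side, with 0.84 (limma adjusted p 0.205).

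Known targets of GATA1 were divided by lineage. Of 12 tested megakaryocyte, mast cell and eosinophil genes, 12 were higher in both SB libraries than in both DMSO libraries and 11 had an unadjusted p under 0.05, against 21.5% and 4.80% of all genes tested. Their median log2 fold change was 1.47, and it was 1.47 within each number. PPBP (2.83), GP1BB (2.15) and PRG2 (2.06), of platelets and eosinophils, had limma adjusted p of 0.0798, 0.0753 and 0.0650, so that 0 of the 12 passed the adjustment. PPBP, counted among the 12, passed the filter through the SB group alone, which favours a higher value with SB. It stood at 0.559 and 1.29 FPKM with DMSO and at 10.3 and 15.0 FPKM with SB. Of the 17 genes listed, 5 stayed under 1 FPKM in each library. Among these, the eosinophil genes EPX and CLC were listed at 0 in each library. Of 18 tested erythroid targets, 0 were higher and 7 were lower at an unadjusted p under 0.05, against 4.80% and 5.16% of all genes tested. None (0 genes) passed the adjustment, and the median was -0.11. Without overlap between the groups, 2 were higher and 8 were lower, against 21.5% and 16.0% of all genes tested. ALAS2 (-2.06), HBZ (-2.12) and RHAG (-1.29), for heme synthesis, embryonic globin and ammonium transport, had limma adjusted p of 0.0605, 0.0910 and 0.169. The difference between both sets was not tested.

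Of 15 tested targets of GATA2 in progenitors and endothelium, 0 were higher and 3 were lower at an unadjusted p under 0.05, against 4.80% and 5.16% of all genes tested, 0 passed the adjustment, and the median was -0.067. Without overlap between the groups, 3 were higher and 4 were lower, against 21.5% and 16.0%. The 3 genes lower at an unadjusted p under 0.05 were EDN1, the vasoconstrictor endothelin (-2.0), ENG, a coreceptor of TGFβ (-1.72), and GFI1 (-1.32). Their limma adjusted p was 0.0845 to 0.109. EDN1 passed the filter through the DMSO group alone, at 3.28 and 4.31 FPKM with DMSO and 0.233 and 0.154 FPKM with SB. Of 15 tested endoderm and liver genes, 14 had a negative fold change, 10 were lower at an unadjusted p under 0.05 and 4 passed the adjustment, against 0.107% of all genes tested on the lower side, and the median was -1.31. Among these APOA1 (-3.81), AFP (-3.55) and TTR (-3.00) fell, with limma adjusted p of 0.0201, 0.0232 and 0.0353. Of 5 tested cardiac targets of GATA4 and GATA6, ACTC1, the cardiac actin, fell from 9.62 and 11.9 to 0.519 and 0.677 FPKM (log2 fold change -2.87, limma adjusted p 0.0365). TNNC1 (-0.95) and MYL7 (-1.09) were lower at an unadjusted p under 0.05, against 5.16% of all genes tested, and did not pass the adjustment. TNNC1 stood at 2.52 and 1.90 FPKM with DMSO and at 0.593 and 0.716 FPKM with SB. MYL7 stood at 1.64 and 1.32 FPKM with DMSO and at 0 and 0.352 FPKM with SB. ACTC1, TNNC1 and MYL7 passed the filter through the DMSO group alone, which favours a lower value with SB. The other 2, MYL4 (0.52) and TNNI3 (0.44), were higher in both SB libraries than in both DMSO libraries and were not under that p. They are named here after their values were seen. The median of the 5 was -0.95, while the summed level of the list, most of it MYL4, was 81.1 and 100.2 FPKM with DMSO and 97.2 and 119 FPKM with SB. Of the 13 listed, 7 stayed under 1 FPKM in each library.

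**Figure D5:**
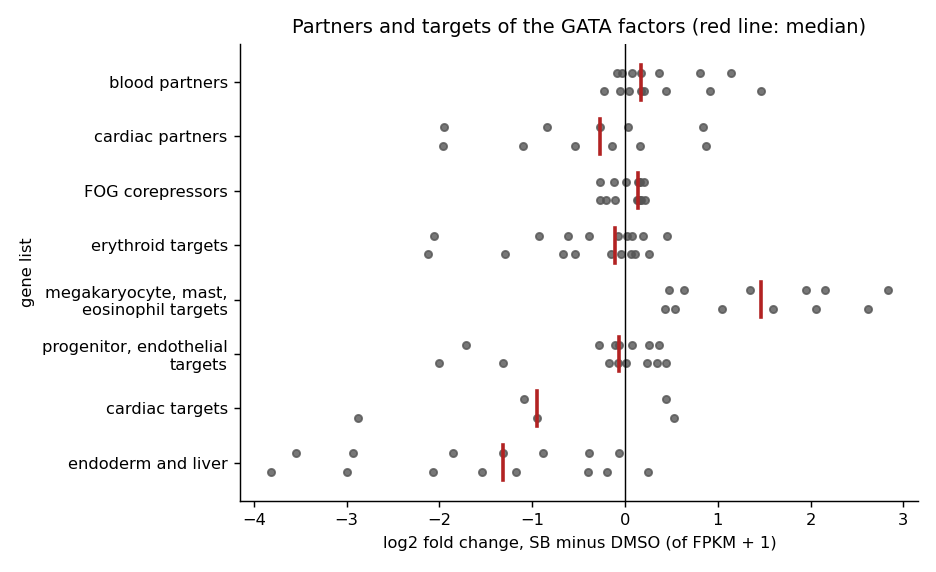
Log2 fold change SB minus DMSO of each tested gene (points) in lists of partners and targets of the GATA and FOG genes, with the median of each list in red. The megakaryocyte, mast cell and eosinophil targets lie to the right of 0 (median 1.47) and most endoderm and liver genes to the left (median -1.31).

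Markers of other cell types were compared in the same libraries. Endoderm and liver genes summed to 380 and 385 FPKM with DMSO and to 116 and 89.9 FPKM with SB, mesenchymal markers to 433 and 392 against 217 and 216, and epithelial markers to 260 and 254 against 118 and 125. At an unadjusted p under 0.05, 4.80% of all genes tested were higher and 5.16% were lower, which is the background of the marker counts here. Of 10 tested mesenchymal markers, 7 were lower at an unadjusted p under 0.05 (median -0.86), led by COL1A1 (-2.46), TAGLN (-1.70) and COL3A1 (-1.03). All 8 epithelial markers were lower at that p (median -1.06), led by KRT19 (-2.06), KRT8 (-1.17) and CLDN6 (-1.21). These lists were lower in the same libraries as GATA4 and GATA5. Pan-hematopoietic markers summed to 217 and 228 FPKM with DMSO and to 364 and 392 FPKM with SB, and 8 of 11 tested were higher at an unadjusted p under 0.05 (median 1.20), led by CSF1R (2.14), CD84 (1.85) and TYROBP (1.31). Endothelial markers had a median of -0.090, with 1 of 12 higher (CLDN5, 1.04) and 1 lower (ROBO4, -1.09) at that p, and CDH5 at -0.28. Pluripotency markers had a median of -0.0098 over 5 tested genes, with POU5F1 (0.72) and LIN28A (0.59) higher and TDGF1 (-0.70) lower at that p. POU5F1 passed the filter through SB alone (0.442 and 0.473 FPKM with DMSO, 1.23 and 1.60 FPKM with SB). TDGF1 passed it through DMSO alone (0.804 and 1.31 FPKM with DMSO, 0.224 and 0.298 FPKM with SB). Of the markers tested in these lists other than the endoderm and liver list, 0 passed the adjustment in limma. The part of cell composition in the values of the GATA genes was not tested.

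For each member, the genes with the most similar pattern over the 4 libraries were sought among 10343 tested genes with a mean of at least 5 FPKM in a group. The measure was the root mean square difference of centred log2(FPKM + 1) values. ENC1 (0.054) and PMEPA1 (0.068), an inducible inhibitor of TGFβ signaling, were closest to GATA4, and only 3 genes came within 0.1 of it. JUND (0.032) and UBXN6 (0.066) were closest to ZFPM1, within 0.1 of which there were 4 genes. COL5A1 (0.013) and FSD1 (0.017) were closest to GATA5, with 16 genes within 0.1, and LTBP3 (0.027) and SHB (0.041) were closest to GATA6, with 48. GATA1 was most like FAR2P1 (0.021) and ICAM1 (0.022), GATA2 like SSNA1 (0.010) and AC008894.2 (0.027), and GATA3 like LZTR1 (0.016) and MAU2 (0.017). ZFPM2 was most like CLYBL (0.014) and NDUFB7 (0.015), and 859 genes came within 0.1 of it. With 4 libraries, many genes share a pattern by number and treatment alone, so this likeness is a description.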

How the data were processed

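The deposited table holds FPKM values, which the authors obtained from a sequencing service and which scale fragments by transcript length and library total, for 4 libraries and 58365 rows. Replicates were not pooled. The submitters' processing notes name BWA, Bowtie and RSEM, with no versions, and the build hg19. The loci in the table lie on GRCh38: 95.5% of identifiers were found in GENCODE release 29, with the same version, and 99.97% of the identifiers found lay at the same position.

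Groups were taken from the sample titles. Values were transformed to log2(FPKM + 1), and genes with a mean of at least 1 FPKM in a group were tested (14909 genes), with SB against DMSO as the only term, in limma 3.58.1 (R 4.3.3) with a mean-variance trend and Benjamini-Hochberg adjustment over all genes tested (threshold 0.05, two-sided). The study names Student's t test for comparing groups in general. An exact permutation test of 2 against 2 libraries cannot give a p below 0.333 and was not used. The fit was also run on simulated data with independent noise in each library. That simulation held no shared difference between replicate numbers, so it does not cover this feature of the data.

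All 8 members were named, with up to 3 genes of each list by the smallest unadjusted p, every antisense transcript found and the 2 genes most like each member. The lists were written by hand. The members and lists were chosen with earlier results of these data known.

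Depth was estimated from genes with 1 transcript over 1500 nt, where value times length steps by what 1 fragment is worth, and taken as approximate since effective lengths are unknown. Fragments behind a gene were computed with its longest transcript. These errors cover counting only. Alternative settings comprised a block on the replicate number, omission of the filter, a stricter filter (5 FPKM or more in 2 or more libraries), a pseudocount of 0.1, upper-quartile scaling, quantile normalization, a fit with no mean-variance trend and leaving out each library in turn. The contrast was also taken over members past the filter and as a ratio of summed FPKM.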

Additional observations from a re-analysis of the deposited data

How the results depend on the processing

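The contrast of blood minus mesendoderm factors kept its direction under all 12 alternatives. All 6 GATA genes passed the filter, so some of these could not change the value of 1.39. They were omission of the filter, the genes above 0 in at least 1 library and the restriction to members past the filter. The contrast was 1.55 with a pseudocount of 0.1, 1.60 as a log2 ratio of summed FPKM, and 1.29 to 1.49 when each library was left out in turn. With the replicate number as a block, 3 members passed the adjustment, namely GATA1 (limma adjusted p 0.0169), GATA4 (0.00360) and GATA5 (0.0184), against 0 without the block. The counts went from 20 to 1564 over all genes tested and from 5 to 74 over the list genes. The labels do not say that a number marks a shared culture or day. The differences between numbers in DMSO and in SB correlated with r of 0.528 over genes, and with only 2 pairs the samples are taken to share a number only. Without a filter, 2 members passed (GATA4 and GATA5), with 2156 genes in all and 67 of the lists, but 29236 of 58365 rows then had no residual variance and limma reported its prior as unreliable. Over the genes above 0 in at least 1 library, an alternative added after the data were seen, 0 members, 0 genes and 0 list genes passed, with 2739 genes at an unadjusted p under 0.05. Quantile normalization gave 31 genes in all and 9 of the lists. With each library left out, 0 to 16 genes passed over all genes, 0 members and 0 list genes. Without DMSO replicate 1 none of the genes passed (0, with 1101 at an unadjusted p under 0.05), and without SB replicate 1 the count was 7.

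Leaving out a library turned the direction of 3 members, all of which overlap between the groups. GATA2 ranged from -0.15 (without SB replicate 1 or without DMSO replicate 2) to 0.62. GATA3 ranged from -0.41 to 0.28 and was positive without DMSO replicate 1 or without SB replicate 2. ZFPM1 ranged from -0.32 (without DMSO replicate 2) to 1.22 and was -0.11 without SB replicate 1. GATA1 stayed between 0.54 and 0.61, GATA4 between -2.07 and -1.46, GATA5 between -1.41 and -0.88, GATA6 between -1.0 and -0.033 and ZFPM2 between 0.17 and 0.42. With a library left out, the lone library of a group is assumed to vary like the other group. The other alternatives turned no member's direction, and GATA5 was not tested under the stricter filter. Depth limits GATA5 most among the members, with a counting error of up to 10.4%. Upper-quartile scaling moved the median of all genes from 0.040 to 0.0023.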
